A study of Mus musculus with 10 samples.

Results

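The S100 genes encode small EF-hand proteins that bind calcium and act mostly as dimers. Of the 51456 Ensembl genes in the deposited table, 9 were taken by their GENCODE symbols: S100a1, S100a3, S100a4, S100a6, S100a8, S100a9, S100a10, S100a11 and S100a13. Their level was read in 10 RNA libraries from sorted mouse bone marrow cells. The 5 libraries labelled LSC are, by the protocol, leukaemia stem cells of mice whose acute myeloid leukaemia is caused by the fusion gene MLL-AF9. Their gate took cells without lineage markers or Sca-1 that carried c-Kit, CD16/32 and CD34. The 5 libraries labelled HSC are haematopoietic stem cells of wild-type C57BL/6J mice, gated inside the lineage-negative, Sca-1 and c-Kit double-positive (LSK) cells for CD150 and against CD48. All 10 libraries carry the genotype label wild-type, and neither the age of the mice nor the way the fusion gene was introduced is given by the labels. Values are FPKM, in which the fragments of a gene are divided by its length and by the size of the library. The comparison asks how normal and leukaemic stem cells differ in this gene family, and disease and sort gate differ together between the groups, so their effects cannot be told apart.

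Inside cells S100 proteins change the shape and partners of target proteins when calcium rises, and several are also released and bind receptors on other cells. In bone marrow S100a8 and S100a9 are known as the chains of calprotectin, the most abundant protein of the neutrophil cytosol, and they switch on as granulocyte precursors mature. S100a4, S100a6, S100a10 and S100a11 are known for binding to the cytoskeleton and to annexins, which are calcium-dependent membrane proteins.

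Most markers of the labelled cells ran against the labels. In the LSC-labelled libraries 8 of 10 tested genes of haematopoietic stem cells were higher and 1 was lower. Of 12 genes of MLL-fusion leukaemia 2 were higher there and 9 lower. Among all genes tested 27.2% were called higher and 13.8% lower. Cd34, Kit and Meis1 are on both lists, so the counts are not independent. Kit, of both gates, and Cd34, of the LSC gate, were the 2 higher leukaemia genes. Kit and Cd34 are also 2 of the 8 higher stem cell genes. The higher Cd34 runs with the LSC gate and not against the labels. Meis1 was the 1 lower stem cell gene, and Fcgr3, for the CD16 of the LSC gate, was lower too. Ly6a, which encodes the Sca-1 of the HSC gate, had 43.5 to 105 FPKM in the LSC-labelled and 0.27 to 2.52 FPKM in the HSC-labelled libraries. Hoxa9, a target of MLL fusions, had 5.99 to 8.24 FPKM in the LSC-labelled and 48.5 to 69.2 FPKM in the HSC-labelled ones. Every direction below is therefore between libraries as labelled. An exchange of the 2 groups of columns in the deposited table would turn the sign of every fold change, and whether one took place was not tested. Among the HSC-labelled libraries replicates 2 and 3 stood apart. Replicate 3 had the lowest value of the group for 5 of the 8 S100 genes tested. It was also lowest for Cd34, at 7.51 FPKM where the other 4 had 22.4 to 41.7. Replicate 2 had the highest value of the group for 5 of the 8. Its markers of erythroid cells summed to 1724 FPKM, where the other 4 had 133 to 454. Car1 alone made up 1046 FPKM of that sum. The listed globin genes were highest of the group in replicate 3, and the other erythroid markers in replicate 2. The fold changes of the 8 genes without HSC-labelled replicate 3 are drawn beside those of all libraries, and those without HSC-labelled replicate 2 are not drawn. The FPKM of a library summed to 472651 to 499850. Whether the 5 libraries of a group came from separate mice is not in the labels, so the p-values reflect the spread among libraries, which may be technical.

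All 9 genes lie on chromosome 3 (GRCm38/mm10, GENCODE M21) in a pair of blocks. S100a1, S100a13, S100a3, S100a4, S100a6, S100a8 and S100a9 stand in this order within 184.7 kb, from 90511034 to 90695721. S100a11 (93520488 to 93526287, plus strand) and S100a10 (93555080 to 93564643, plus strand) lie 2824.8 kb further on, 28.8 kb from each other. S100a8 (ENSMUSG00000056054, 90668978 to 90670035) is on the plus strand and S100a9 (ENSMUSG00000056071, 90692632 to 90695721) on the minus strand, 22596 bases apart, so that their 3′ ends face each other. S100a1 (ENSMUSG00000044080, minus strand) and S100a13 (ENSMUSG00000042312, plus strand) stand back to back, with 42 bases between their starts. The stretch around the start, 250 bases before it to 50 after it, is shown for the 3 genes whose level differed by the test between the groups. The sequences are from RefSeq on GRCm38.p6, on the strand of the gene, and capitals mark 4 motifs searched on both strands. S100a8 at chr3:90668821-90669120, S100a9 at chr3:90695672-90695971 and S100a4 at chr3:90603520-90603819 read as follows.
S100a8: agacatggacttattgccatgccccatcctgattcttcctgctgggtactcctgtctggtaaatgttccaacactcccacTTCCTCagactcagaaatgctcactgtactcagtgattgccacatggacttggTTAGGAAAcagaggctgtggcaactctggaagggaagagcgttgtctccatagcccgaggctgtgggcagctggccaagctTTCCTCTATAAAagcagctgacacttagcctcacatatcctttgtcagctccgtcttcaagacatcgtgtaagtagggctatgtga
S100a9: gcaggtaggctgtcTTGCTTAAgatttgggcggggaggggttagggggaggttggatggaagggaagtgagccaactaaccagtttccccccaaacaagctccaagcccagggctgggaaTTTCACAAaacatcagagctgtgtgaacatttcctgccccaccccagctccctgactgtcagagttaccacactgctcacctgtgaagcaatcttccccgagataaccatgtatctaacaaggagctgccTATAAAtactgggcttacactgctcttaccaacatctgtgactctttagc
S100a4: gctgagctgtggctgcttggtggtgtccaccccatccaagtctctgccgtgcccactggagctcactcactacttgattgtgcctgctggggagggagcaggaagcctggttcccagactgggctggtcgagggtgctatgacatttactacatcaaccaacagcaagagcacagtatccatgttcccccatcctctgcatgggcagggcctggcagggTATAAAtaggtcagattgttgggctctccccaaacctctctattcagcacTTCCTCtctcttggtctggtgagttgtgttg

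The motifs were the TATA box TATAAA, the PU.1 core GAGGAA, the C/EBP consensus TTNNGNAA and the AP-1 consensus TGANTCA. PU.1 and C/EBP factors are the myeloid regulators of granulocyte genes. TATAAA was found in the S100a8, S100a9 and S100a4 windows, against 13.6% of all 32851 windows in the same table. It lay at base -30 from the RefSeq start in S100a8 and -31 in S100a4, and at base 1 in S100a9. The RefSeq start of S100a8 lies downstream of the GENCODE start given above, so its TATAAA falls inside the GENCODE model. GAGGAA occurred in the S100a8 and S100a4 windows (28.3% of all windows hold it) and TTNNGNAA in the S100a8 and S100a9 windows (40.7%), while TGANTCA occurred in none of these 3 (7.8%). No motif hit overlapped another, and in S100a8 a GAGGAA hit, read on the minus strand, directly adjoins TATAAA. Windows were present for 8 of the 9 genes, and those of S100a1 and S100a13 share 204 bases. The motifs were not limited to the 3 genes shown. The windows of S100a3, which has several, held every motif but the AP-1 consensus. The S100a11 window held the PU.1 core and the AP-1 consensus. The windows of S100a1, S100a6 and S100a13 held none of the motifs. The motifs were chosen after these sequences were seen, and a match describes letters only.

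The calprotectin genes were the highest S100 genes in the LSC-labelled libraries and higher there than in the HSC-labelled ones. S100a8 had 3040.0, 4368, 8481, 9210.0 and 1097 FPKM in LSC-labelled replicates 1 to 5, against 1658, 1691, 447, 348 and 344 FPKM in HSC-labelled replicates 1 to 5. Of the 5 LSC-labelled values 4 lay above every HSC-labelled value, and replicate 5 lay below HSC-labelled replicates 1 and 2. The mean was 5239 ± 3501 FPKM in the LSC-labelled and 898 ± 711 FPKM in the HSC-labelled libraries (SD, n = 5 each), and the log2 fold change on the log2(FPKM + 1) scale was 2.58 (SE 0.657, limma adjusted p = 0.00875). S100a9 had 1504, 2047, 4408, 5362 and 388 FPKM in the LSC-labelled replicates, against 382, 852, 195, 120.2 and 120.35 FPKM in the HSC-labelled ones. Again 4 LSC-labelled values lay above every HSC-labelled one and replicate 5 lay inside the HSC-labelled range. Its log2 fold change was 2.98 (SE 0.733, limma adjusted p = 0.00726). Among all genes of a library ordered by FPKM, S100a8 ranked 2nd in LSC-labelled replicates 3 and 4 and 33rd in replicate 5, and between rank 19 and rank 177 in the HSC-labelled libraries.

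**Figure D1:**
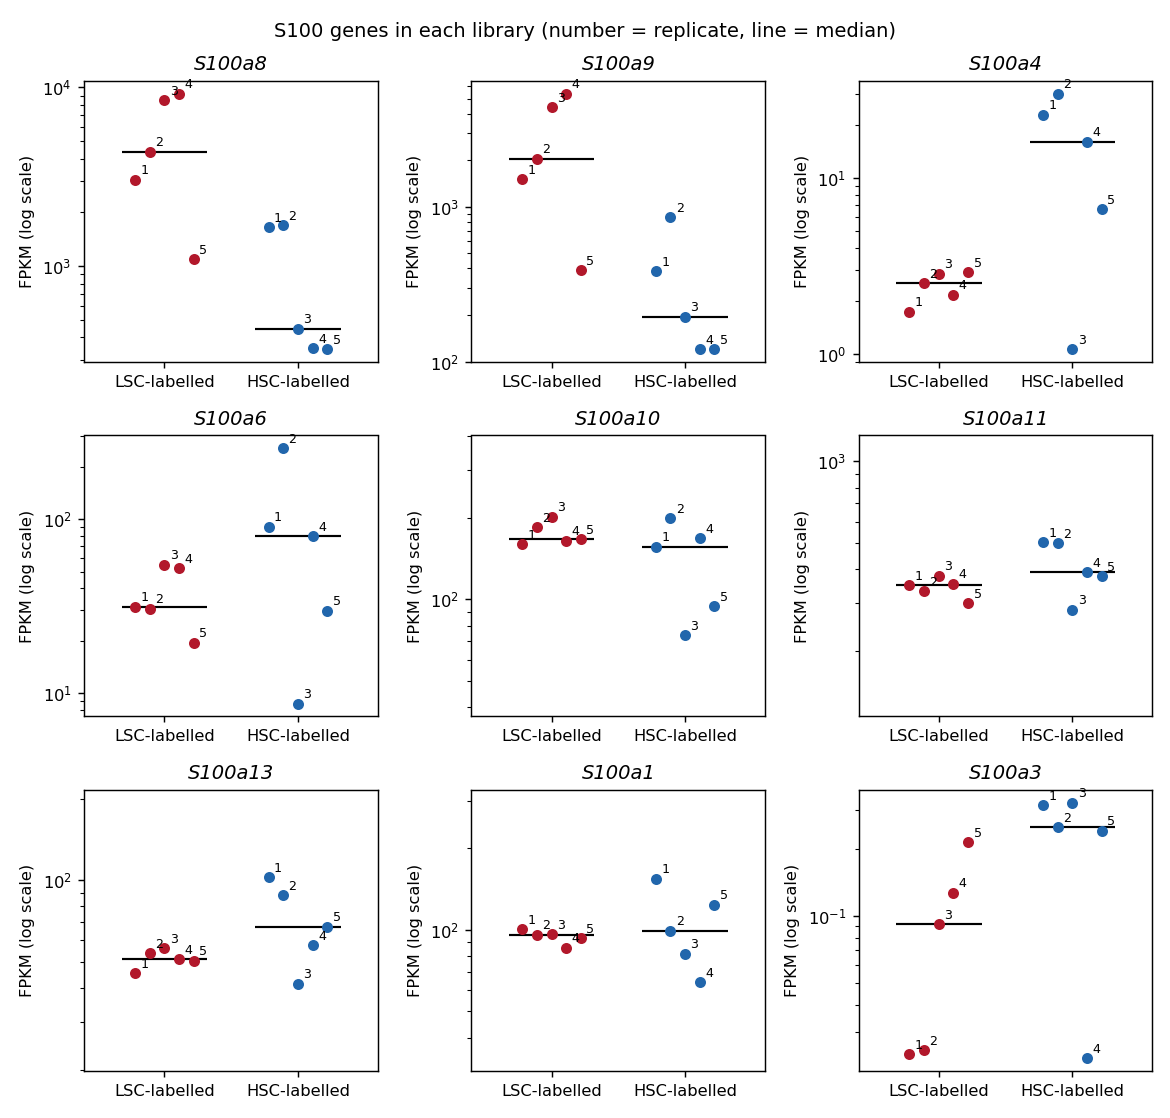
FPKM on a log axis of each of the 9 S100 genes, with LSC-labelled libraries left of HSC-labelled ones, a point per library numbered by replicate and a line at the group median. S100a8 and S100a9 are high in 4 of the 5 LSC-labelled libraries, S100a4 is above 6 FPKM in 4 HSC-labelled libraries and at 1.06 FPKM in replicate 3, and the 2 groups overlap for every gene.

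In all, limma called 3 of the 8 S100 genes tested, where it called 41% of all 13431 genes tested. The 2 higher ones, S100a8 and S100a9, stand beside 27.2% of all genes called higher, and the 1 lower, S100a4, beside 13.8% called lower, so the share called was near that of all genes. In all 8 the groups overlapped, where 29.8% of all genes tested had groups without overlap (20% higher and 9.8% lower). The median log2 fold change of the 8 was -0.16 and that of all genes 0.11. S100a3 lay below the filter of 1 FPKM in at least 5 libraries and was not tested. The calls over all genes depend on scaling: 66.3% of them were higher with the deposited values, 50.8% after median-of-ratios scaling, which moved the median of all genes to -0.01, and 49.6% after quantile normalization. Median-of-ratios scaling called 40.7% of genes (20.7% higher, 20% lower) and quantile normalization 41.8% (20.7% higher, 21.1% lower). No S100 gene changed the sign of its fold change under either.

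The spread of the calprotectin genes within a group was wide. Over the LSC-labelled libraries S100a8 ran 8.397-fold from lowest to highest and S100a9 13.84-fold. On the log2(FPKM + 1) scale their SDs within that group were 1.25 and 1.51, larger than those of 99.8% and 99.9% of all genes tested, whose median SD was 0.155. Within the HSC-labelled group their SDs were 1.19 and 1.21, where the median of all genes was 0.232. S100a8 and S100a9 together made up 70.1% to 95.4% of the summed FPKM of the 9 genes in the LSC-labelled and 37.7% to 68.5% in the HSC-labelled libraries. The other 7 genes summed to 633 to 790 FPKM in the LSC-labelled libraries and to 490.5 to 1171 FPKM in the HSC-labelled ones.

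The ratio of S100a8 to S100a9, which does not depend on how a library is scaled, was 2.02, 2.13, 1.92, 1.72 and 2.83 in LSC-labelled replicates 1 to 5 and 4.34, 1.98, 2.30, 2.90 and 2.86 in HSC-labelled replicates 1 to 5. The groups overlap, S100a8 exceeded S100a9 in every library, and the difference in mean log2 ratio was -0.40 (exact permutation test over libraries, two-sided p = 0.0952, and 0.0952 adjusted over the 2 ratios tested). The difference passed the threshold without HSC-labelled replicate 2 (-0.52, adjusted p = 0.0317 by the same exact test) and without LSC-labelled replicate 5 (-0.51, adjusted p = 0.0476).

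Among the named genes tested outside the S100 genes, Camp had the profile over the 10 libraries nearest to each calprotectin gene. Camp encodes the granule protein cathelicidin. Likeness was measured as the root-mean-square difference between profiles of log2(FPKM + 1), each centred on its own mean. Here and below only genes that passed the filter were compared, and unnamed gene models, pseudogenes and mitochondrial genes were left out. The nearest to S100a8 among other genes were Camp (0.488), Itgb2l (0.595) and Lrg1 (0.624). Nearest to S100a9 were Camp (0.402), Lcn2 (0.496), which encodes lipocalin 2, and Ngp (0.518), which encodes neutrophilic granule protein. S100a8 and S100a9 were nearer to each other, at 0.376, than Camp was to either, and the root-mean-square of their own centred profiles was 1.69 and 1.92.

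Of 12 markers of late neutrophils 8 were higher in the LSC-labelled libraries, 0 lower and 4 not called by limma. Their median log2 fold change was 2.42. The shares of all genes were 27.2% higher and 13.8% lower. The 4 not called had log2 fold changes of 0.06 (Mmp8), -0.94 (Padi4), -1.20 (Cd177) and -2.58 (Chil3). Lcn2, at an adjusted p of 0.049 by limma, was not called under either other scaling or without HSC-labelled replicate 3, and without that library Padi4 was called lower. Ngp had 583, 923, 1909, 2514 and 86.1 FPKM in LSC-labelled replicates 1 to 5, against 54.3, 240.1, 48.1, 44.7 and 45.7 FPKM in HSC-labelled replicates 1 to 5. Ltf, lactoferrin, had 120.4, 189, 429.68, 518 and 11.3 FPKM in the LSC-labelled libraries and 2.75 to 8.72 FPKM in the HSC-labelled ones. Within the LSC-labelled group 8 of the 12 markers had the library order of S100a8, replicate 5 was lowest for all 12, and the highest was replicate 4 for 9 and replicate 3 for Mmp9, Retnlg and Padi4. Within the HSC-labelled group replicate 2 was highest for 10 of the 12, and replicate 3 for Retnlg and Ly6g. The summed FPKM of the 12 markers ran from 281 to 6271 in the LSC-labelled and from 447 to 12534 in the HSC-labelled libraries. The highest of these sums held 11533 FPKM of Chil3, which encodes a chitinase-like protein, in HSC-labelled replicate 2. None of the 12 markers was below 1 FPKM in all libraries. Their part in the S100 result was not tested, and in such bulk libraries more cells of a type and more RNA per cell cannot be told apart.

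**Figure D2:**
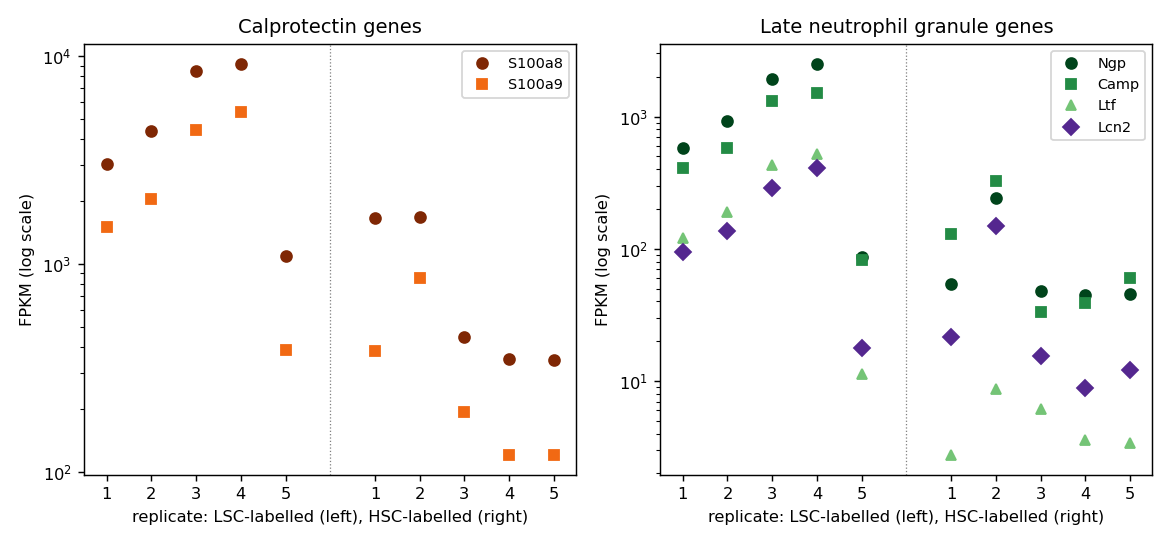
FPKM on a log axis of S100a8 and S100a9 (left panel) and of 4 late neutrophil granule genes chosen after their values were seen (right panel), with a point per library and LSC-labelled replicates left of HSC-labelled ones. All 6 genes are highest in LSC-labelled replicate 4 and lowest of that group in replicate 5, and highest of the HSC-labelled group in replicate 2.

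S100a4, known for binding non-muscle myosin and for its place in motile cells, was lower in the LSC-labelled libraries. S100a4 (ENSMUSG00000001020, 90603771 to 90606045, plus strand) had 1.73, 2.52, 2.85, 2.17 and 2.90 FPKM in LSC-labelled replicates 1 to 5, against 22.9, 30.1, 1.06, 16.1 and 6.63 FPKM in HSC-labelled replicates 1 to 5. The LSC-labelled values lay close together and below 4 of the HSC-labelled ones, while HSC-labelled replicate 3 lay below all of them. The log2 fold change was -1.75 (SE 0.608, limma adjusted p = 0.0381), and it was -2.37 without HSC-labelled replicate 3 (adjusted p = 0.000409). The call rested on few values. It was lost when any other library but HSC-labelled replicate 5 was left out, with log2 fold changes of -1.80 to -1.39 and limma adjusted p of 0.0613 to 0.0863. GENCODE M21 places a further gene model, Gm42674, over 2115 bases of S100a4, and reads may be shared between them.

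The neighbouring gene for calcyclin, known from growing and stromal cells, was not called. S100a6 (ENSMUSG00000001025, 90612882 to 90624181, plus strand) had 31.4, 30.7, 54.7, 52.3 and 19.6 FPKM in LSC-labelled replicates 1 to 5, against 90.3, 255, 8.71, 79.9 and 29.7 FPKM in HSC-labelled replicates 1 to 5. The HSC-labelled libraries reached both the highest and the lowest value of the 10. The log2 fold change was -0.64 (SE 0.715, limma adjusted p = 0.507), -1.27 without HSC-labelled replicate 3 (adjusted p = 0.0784) and -0.09 without HSC-labelled replicate 2 (adjusted p = 0.92). Within the HSC-labelled group S100a4 and S100a6 had SDs of 1.58 and 1.78 on the log2 scale, larger than those of 99.7% and 99.8% of all genes tested.

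The profiles nearest to S100a4 were those of Clec4b2 (root-mean-square difference 0.307), a C-type lectin gene, Pid1 (0.433) and Slpi (0.453), which encodes a leukocyte protease inhibitor. Slpi had 86.3, 87.6, 115.0, 104 and 72.9 FPKM in LSC-labelled replicates 1 to 5, against 992, 584, 45.9, 893 and 268 FPKM in HSC-labelled replicates 1 to 5. Nearest to S100a6 were Padi4 (0.556), a histone-modifying enzyme of granulocytes, Dusp6 (0.642) and Cybb (0.646), the catalytic subunit of the phagocyte NADPH oxidase. Cybb and Padi4 shared the low value in HSC-labelled replicate 3, at 23.6 and 9.79 FPKM, where the other HSC-labelled libraries had at least 49.5 and 16.99 FPKM. Without that library limma called Cybb and Padi4 lower.

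S100a10, called p11, binds annexin A2 in a tetramer at the inner face of the plasma membrane and does not itself respond to calcium. S100a10 had 160.3, 185, 202, 165 and 167 FPKM in LSC-labelled replicates 1 to 5, against 156, 199, 73.8, 168 and 94.4 FPKM in HSC-labelled replicates 1 to 5. HSC-labelled replicates 3 and 5 were low and the other 3 lay at the level of the LSC-labelled libraries. The log2 fold change of 0.43 did not pass the test (SE 0.241, limma adjusted p = 0.177). It was 0.23 without HSC-labelled replicate 3 (adjusted p = 0.367) and 0.58 without HSC-labelled replicate 2 (adjusted p = 0.0546). Its partner Anxa2 was lower in the LSC-labelled libraries, at 77.8, 65.5, 80.0, 78.2 and 55.7 FPKM in LSC-labelled replicates 1 to 5, against 192, 204, 147, 152 and 197 FPKM in HSC-labelled replicates 1 to 5. The Anxa2 values did not overlap between the groups, and its log2 fold change was -1.31 (SE 0.133, limma adjusted p = 2.641e-05).

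The ratio of S100a10 to Anxa2 separated the groups. It was 2.06, 2.83, 2.52, 2.103 and 2.99 in LSC-labelled replicates 1 to 5 and 0.816, 0.978, 0.503, 1.11 and 0.479 in HSC-labelled replicates 1 to 5. Every LSC-labelled library had at least 2.06 FPKM of S100a10 per FPKM of Anxa2 and no HSC-labelled library more than 1.11. The mean log2 ratio was 1.31 ± 0.24 in the LSC-labelled and -0.45 ± 0.55 in the HSC-labelled libraries (SD, n = 5 each), a difference of 1.75 (exact permutation test, two-sided p = 0.00794, the smallest that splits of 5 against 5 libraries allow, and 0.0159 adjusted over the 2 ratios). With a replicate block the adjusted p was 0.125 by an exact sign-flip test of the differences between same-numbered libraries. With 5 differences that test cannot pass the threshold, so it does not bear on the call. Without LSC-labelled replicate 5 and HSC-labelled replicate 3 the difference was 1.55 (adjusted p = 0.0571 by exact permutation), where fewer splits set the smallest p. Both values are RNA levels, and the ratio of the proteins was not measured. The profiles nearest to that of S100a10 were those of Lmo2 (0.161), Itih5 (0.169) and Smim6 (0.171).

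**Figure D3:**
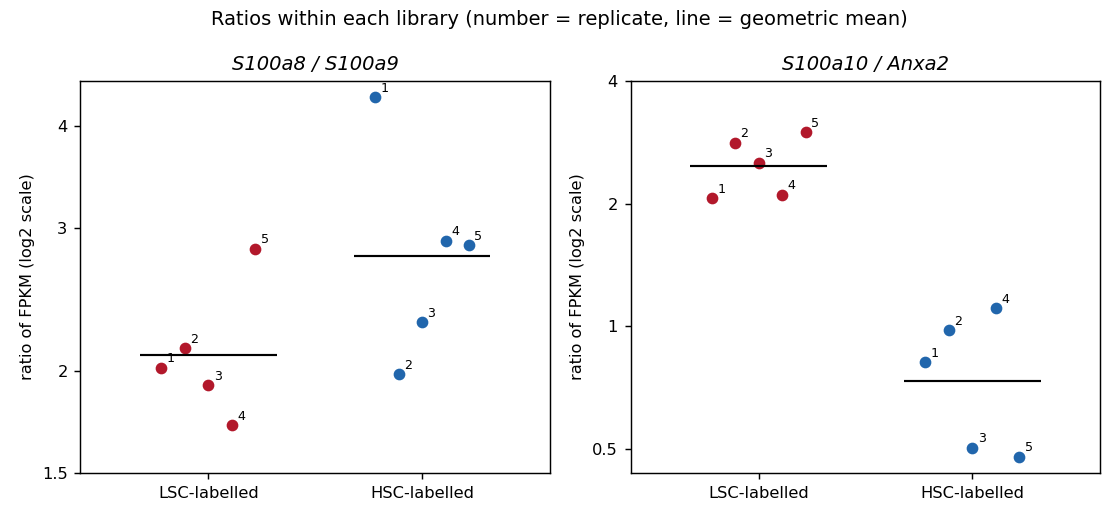
Ratio of FPKM within each library, on a log2 axis, of S100a8 to S100a9 (left) and of S100a10 to Anxa2 (right), with LSC-labelled libraries left of HSC-labelled ones, replicates numbered and a line at the geometric mean. The S100a10 to Anxa2 ratio runs from 2.06 to 2.99 in the LSC-labelled libraries and from 0.479 to 1.11 in the HSC-labelled ones, while the S100a8 to S100a9 ratios overlap.

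S100a11, another annexin-binding member, followed the calprotectin genes in level in the LSC-labelled libraries and was steady there. S100a11 had 349, 331, 378, 354 and 299.75 FPKM in LSC-labelled replicates 1 to 5, against 503, 499, 283, 389 and 377 FPKM in HSC-labelled replicates 1 to 5. The difference of -0.23 on the log2 scale did not pass the test (SE 0.151, limma adjusted p = 0.241), though it did without HSC-labelled replicate 3 (-0.36, adjusted p = 0.0351). Nearest to S100a11 in profile stood Bcl10 (0.0790), Numb (0.0939) and Adipor1 (0.0948). The processed copy S100a11-ps was at or below 0.369 FPKM in every library.

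S100a13, known in the release of proteins that lack a signal peptide, had 45.3, 53.8, 56.1, 51.0 and 50.5 FPKM in LSC-labelled replicates 1 to 5, against 102.6, 87.9, 41.5, 57.6 and 67.4 FPKM in HSC-labelled replicates 1 to 5. HSC-labelled replicates 1, 2, 4 and 5 lay above every LSC-labelled value and replicate 3 below them. The log2 fold change was -0.40 (SE 0.205, limma adjusted p = 0.139), and -0.58 without HSC-labelled replicate 3 (adjusted p = 0.0139). Without that library limma called S100a4, S100a11 and S100a13 lower and S100a8 and S100a9 higher, where 38.6% of all genes were called, 24.3% higher and 14.3% lower. Nearest to S100a13 in profile were Tiam2 (0.161), Higd2a (0.161) and Mgst1 (0.162).

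S100a1, best known from heart muscle, had 100.4, 95.9, 96.2, 85.9 and 93.0 FPKM in LSC-labelled replicates 1 to 5, against 154, 99.2, 81.7, 64.0 and 124 FPKM in HSC-labelled replicates 1 to 5. The LSC-labelled values lay inside the HSC-labelled range, and the log2 fold change of -0.08 (SE 0.198) did not pass the test (limma adjusted p = 0.764). It was -0.16 without HSC-labelled replicate 3 (limma adjusted p = 0.587). S100a1 and its neighbour S100a13 start back to back, and their GENCODE M21 models do not overlap, with 42 bases between them. The annotation behind the deposited values is not given, and no label states the strandedness of the libraries. Tmem256 (0.119), Rassf1 (0.127) and Hsf2 (0.138) had the profiles nearest to S100a1. S100a1, S100a10, S100a11 and S100a13 were the steadiest members in the LSC-labelled libraries, with SDs of 0.08, 0.14, 0.12 and 0.11 on the log2 scale. In the HSC-labelled libraries their SDs were 0.49, 0.60, 0.34 and 0.51.

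S100a3, a cysteine-rich member of hair, was close to 0 in every library. S100a3 had 0.024, 0.025, 0.092, 0.127 and 0.214 FPKM in LSC-labelled replicates 1 to 5, against 0.314, 0.25, 0.322, 0.023 and 0.241 FPKM in HSC-labelled replicates 1 to 5. The groups overlap, and tested without the filter it was not called (log2 fold change -0.16, limma adjusted p = 0.329). Its gene model spans 42.12 kb and encloses S100a2, so reads of S100a2 can fall within it.

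**Figure D4:**
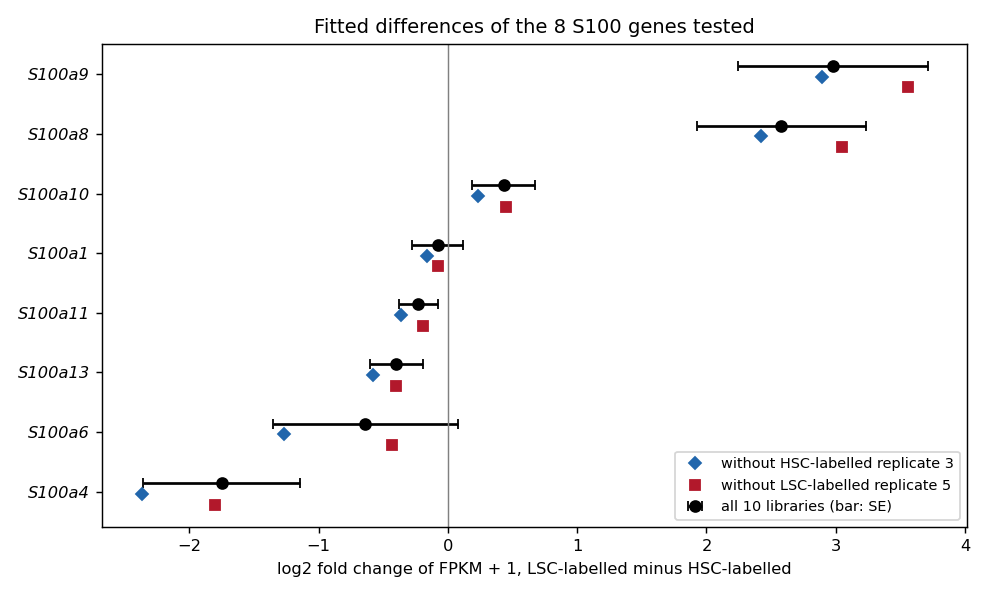
Log2 fold change of FPKM + 1, LSC-labelled minus HSC-labelled, of the 8 S100 genes tested, with black circles and SE bars for all 10 libraries, diamonds without HSC-labelled replicate 3 and squares without LSC-labelled replicate 5. S100a8 and S100a9 stay above 2 in each case, while S100a6 moves from -0.64 to -1.27 and S100a4 from -1.75 to -2.37 when HSC-labelled replicate 3 is left out. Without HSC-labelled replicate 2, a case not drawn, S100a6 is at -0.09 and S100a4 at -1.39.

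By mean FPKM the order in the LSC-labelled libraries was S100a8, S100a9, S100a11, S100a10, S100a1, S100a13, S100a6, S100a4 and S100a3. Each gene exceeded the next in all 5 libraries, except S100a13 over S100a6, which held in 4 of 5. In the HSC-labelled libraries the order was S100a8, S100a11, S100a9, S100a10, S100a1, S100a6, S100a13, S100a4 and S100a3. There the neighbours from S100a8 down to S100a13 changed places between libraries and were not apart beyond their spread. S100a8 exceeded S100a11 in 3 of the 5 libraries, S100a11 exceeded S100a9 in 4, S100a9 exceeded S100a10 in 4, S100a10 exceeded S100a1 in 3, S100a1 exceeded S100a6 in 3 and S100a6 exceeded S100a13 in 2. S100a4 stood below S100a13 and above S100a3 in all 5.

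Of the 8 other S100 genes in the table, S100a2, S100a5, S100a7a, S100a14, S100b, S100g and S100z were below 1 FPKM in every library. S100a16, the remaining one, was called higher in the LSC-labelled libraries. It had 3.06, 1.75, 2.13, 3.43 and 1.95 FPKM in LSC-labelled replicates 1 to 5, against 0.419, 0.096, 0.468, 0.3 and 0.663 FPKM in HSC-labelled replicates 1 to 5. The groups did not overlap, and the log2 fold change was 1.31 (SE 0.161, limma adjusted p = 9.501e-05). At this low level the size depends on the pseudocount of 1: it was 2.48 with 0.1 and 2.81 with 0.01, and the ratio of the mean FPKM was 6.33. S100pbp, which encodes an S100-binding protein and is not an S100 gene, was also higher, at 3.10 ± 0.33 FPKM in the LSC-labelled and 1.88 ± 0.20 FPKM in the HSC-labelled libraries (SD, n = 5 each; limma adjusted p = 0.00135).

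Annexins are partners of several S100 proteins, and 5 of the 9 tested were lower, where 13.8% of all genes tested were. Of 11 annexin genes 9 passed the filter, and in the LSC-labelled libraries limma called 1 higher and 5 lower and left 3 uncalled, with a median log2 fold change of -0.44 beside 0.11 for all genes. Besides Anxa2 the lower genes were Anxa3, Anxa4, Anxa5 and Anxa6. Without LSC-labelled replicate 5 limma called 3 lower, Anxa2, Anxa4 and Anxa5, and without HSC-labelled replicate 3 these and Anxa11. Under median-of-ratios or quantile scaling 6 were lower, where 20% and 21.1% of all genes were. Anxa5, which binds phosphatidylserine, had 80.6 ± 7.81 FPKM in the LSC-labelled and 206 ± 21.0 FPKM in the HSC-labelled libraries (SD, n = 5 each). Anxa7 was the higher one, at 28.1 ± 2.07 FPKM in the LSC-labelled and 20.5 ± 1.66 FPKM in the HSC-labelled libraries. Anxa1, a partner of S100a11, had 211 ± 65.3 FPKM in the LSC-labelled and 149 ± 65.4 FPKM in the HSC-labelled libraries and was not called (limma adjusted p = 0.198).

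Among 14 genes for receptors and surface partners of released S100 proteins 10 were tested. Of these 3 were higher, 4 lower and 3 not called, with a median of -0.01. The shares of all genes were 27.2% higher and 13.8% lower. Bsg, which encodes basigin, a receptor of S100A9 in human cells, had 322 ± 31.8 FPKM in the LSC-labelled and 256 ± 24.6 FPKM in the HSC-labelled libraries (limma adjusted p = 0.0192), a call lost under median-of-ratios scaling and without LSC-labelled replicate 5. Emb, which encodes the related protein embigin, was lower, at 117 ± 10.5 FPKM in the LSC-labelled and 297 ± 60.8 FPKM in the HSC-labelled libraries. Cd14, a co-receptor of TLR4, was lower too, at 4.72 ± 0.38 FPKM in the LSC-labelled and 12.4 ± 6.30 FPKM in the HSC-labelled libraries. Tlr4, a receptor of calprotectin, was not called, at 4.11 ± 0.74 FPKM in the LSC-labelled and 3.85 ± 0.99 FPKM in the HSC-labelled libraries. Ager, which encodes the receptor RAGE, was at or below 1.35 FPKM in every library and below the filter.

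Of 26 genes for intracellular partners and targets 23 were tested, and 3 were higher, 7 lower and 13 not called, with a median of -0.11. The shares of all genes were 27.2% higher and 13.8% lower. The lower genes included subunits of the NADPH oxidase, to which calprotectin carries fatty acid in neutrophils. Cyba had 403 ± 43.9 FPKM in the LSC-labelled and 1013 ± 54.7 FPKM in the HSC-labelled libraries (SD, n = 5 each), and Ncf1, Ncf4 and Rac2 were lower as well, while Cybb was not called (limma adjusted p = 0.391). Ahnak, a scaffold that the S100a10 and annexin A2 tetramer holds at the membrane, had 0.903 ± 0.138 FPKM in the LSC-labelled and 3.21 ± 1.21 FPKM in the HSC-labelled libraries (limma adjusted p = 0.000782). Cacybp, the binding protein of S100a6, was higher, at 139 ± 18.4 FPKM in the LSC-labelled and 104 ± 8.97 FPKM in the HSC-labelled libraries, a call lost under median-of-ratios scaling. Myh9, the myosin that S100a4 binds, was not called, at 14.6 ± 3.89 FPKM in the LSC-labelled and 17.7 ± 3.75 FPKM in the HSC-labelled libraries.

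Markers of other cells differed between the same libraries, where 27.2% of all genes tested were called higher and 13.8% lower. The 12 markers of megakaryocytes and platelets summed to 845 to 1423 FPKM in the LSC-labelled and 22.6 to 281 FPKM in the HSC-labelled libraries, with 11 of the 11 tested higher and Gp1bb below 1 FPKM in every library. The 12 markers of bone and stroma summed to 272 to 1059 FPKM in the LSC-labelled and 15.6 to 25.3 FPKM in the HSC-labelled libraries. Of these 11 were higher and 1, Spp1, was lower. Pf4, platelet factor, averaged 678 ± 89.3 FPKM in the LSC-labelled and 68.1 ± 79.3 FPKM in the HSC-labelled libraries, and Bglap, osteocalcin, averaged 128 ± 79.5 FPKM in the LSC-labelled and 0.237 ± 0.166 FPKM in the HSC-labelled ones. Higher were also 7 of 12 tested erythroid markers (sums 1483 to 3056 FPKM in the LSC-labelled and 133 to 1724 FPKM in the HSC-labelled libraries), 7 of 8 of mast cells, basophils and eosinophils (1134 to 2467 and 87.6 to 325 FPKM in LSC-labelled and HSC-labelled libraries), 7 of 7 of T and NK cells (32.7 to 69.0 and 3.14 to 10.5 FPKM), 4 of 7 of B cells (196 to 638 and 79.9 to 265 FPKM), 5 of 10 of dendritic cells (449 to 667 and 89.2 to 392 FPKM) and 6 of 7 of endothelium (62.2 to 90.0 and 34.3 to 54.2 FPKM). None of the markers on these 6 lists was called lower. Without HSC-labelled replicate 3 the erythroid count was 9, and with quantile normalization the dendritic count was 3 and the B cell count 3. Of 10 markers of granulocyte-monocyte progenitors 1, Ms4a3, was higher and 3 lower, with sums of 14289 to 21844 FPKM in the LSC-labelled and 12427 to 29288 FPKM in the HSC-labelled libraries. The call of Ms4a3 (limma adjusted p = 0.0476) was lost under both other scalings and without LSC-labelled replicate 5. Of monocyte and macrophage markers 6 of 9 were lower, and 8 without HSC-labelled replicate 3, with sums of 684 to 1093 FPKM in the LSC-labelled and 1084 to 1866 FPKM in the HSC-labelled libraries. Their part in the differences of S100a4, S100a16 and the annexins was not tested.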

How the data were processed

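The authors deposited FPKM values per gene for 10 libraries; total RNA was amplified by the Geo-seq method and made into TruePrep libraries, per the labels' protocols. Per the submitters' processing notes the build was mm10 and the tools Bowtie 0.12.9, Cufflinks 2.1.1, HTSeq and DESeq2, without roles. The annotation release and the strandedness of the libraries: not given in the sources used here. Symbols came from GENCODE M21 (51246 of 51456 IDs matched). Low values were whole multiples of a step, within 0.05, for at most 59.2% to 82.6% of values per library, so fragments were not recovered and the depth is unknown.

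A linear model on group was fitted in limma 3.58.1 (R 4.3.3; variance trend, two-sided) to log2(FPKM + 1) of the 13431 genes that reached 1 FPKM in 5 or more libraries, adjusted by Benjamini-Hochberg over all genes tested, with a threshold of 0.05; this scale understates changes of low genes. The fit was first tested on simulated data in which a gene had the same spread in both groups, unlike these libraries. It recovered 81% of 2-fold and 53% of 1.5-fold changes, and 5.63% of its calls were unchanged genes. A gene not called may therefore still differ. A positive log2 fold change means a higher level in the LSC-labelled libraries. Ratios were tested by exact permutation over libraries with scipy 1.17.1, and with a replicate block by exact sign flips of the same-numbered differences. Tables and plots used Python 3.11.15, numpy 2.4.6, pandas 2.3.3 and matplotlib 3.10.9.

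The S100 genes and the gene lists were chosen with earlier results of these data known. By rule, every S100 gene was named, genes of the partner lists that averaged 10 FPKM or more in a group could be, and so were the most abundant gene of a marker list and the 3 genes of nearest profile. Tlr4, Ager, Ahnak, Ngp, Ltf, Camp, Lcn2, Ly6a, Hoxa9, Kit, Meis1, Gp1bb, Spp1 and Ms4a3 were singled out after their values were seen. So were the other late neutrophil markers given by value. Alternatives were other pseudocounts, no filter, other scalings, no variance trend, a replicate block and each library left out; leaving out LSC-labelled replicate 5 and HSC-labelled replicate 3 together, and repeating the list counts under other scalings and without either library, were added after seeing the data. The values of 1 gene of the partner lists are not reported here.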

Additional observations from a re-analysis of the deposited data

Results flagged for a closer look

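S100a3 in HSC-labelled replicate 4 stood at 0.023 FPKM, far from the other 4 HSC-labelled libraries at 0.241 to 0.322 FPKM: the gap to the nearest was 0.73 of the group's range, above Dixon's critical value of 0.71. It was the only 1 of 28 groups of 5 values checked that stood out so, where chance flags about 1 in 20. At that rate a single flag among 28 groups is no more than chance would give. S100a3 lay below the filter, and LSC-labelled replicates 1 and 2 had similar values, at 0.024 and 0.025 FPKM.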

How the results depend on the processing

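S100a8 and S100a9 were called higher in all 18 alternatives, with log2 fold changes of 2.28 to 3.05 and 2.61 to 3.56. The call of S100a4 (-1.75) was lost with pseudocounts of 0.1 (-1.97) and 0.01 (-1.99) and without the filter (-1.75), and with 1 library left out its fold change ran from -2.37 to -1.39 (adjusted p from 0.000409 to 0.0863). S100a13 passed the threshold after quantile normalization or median-of-ratios scaling (-0.54 in both) and without LSC-labelled replicate 5 and HSC-labelled replicate 3 together (-0.57), and ran from -0.58 to -0.26 with 1 library left out. S100a11 passed it with median-of-ratios scaling (-0.37) and ran from -0.36 to -0.15 with 1 library left out. S100a10 ran from 0.23 to 0.58, and S100a16 was called in every alternative, at 1.10 to 2.81. S100a1 ran from -0.24 to 0.07, its sign turning without HSC-labelled replicate 1, and was never called. The count of S100 genes called lower was 1 as reported, 0 with either other pseudocount or without the filter, 3 with median-of-ratios scaling, 2 with quantile normalization, 2 without those 2 libraries and 0 to 3 with 1 left out. Of all genes 1859 were called lower, and 2833 with quantile normalization, where 49.6% of calls were higher; the share was 66.3% as reported (median of all genes 0.11) and 50.8% with median-of-ratios scaling (median -0.01). The S100a8 to S100a9 ratio ran from -0.52 to -0.24 with 1 library left out. The causes were not tested. The S100a10 to Anxa2 difference was 1.6 to 1.9 with 1 library left out. It missed the threshold without those 2 libraries (1.55, adjusted p = 0.0571), where fewer splits set the smallest p. With a replicate block it was 1.75 (adjusted p = 0.125 by an exact sign-flip test), and that test cannot pass the threshold with 5 differences. The deviations of same-numbered libraries from their group means had correlations across genes of -0.29 to 0.225. These values do not settle whether the numbers pair the samples. With a replicate block limma changed no call of an S100 gene (S100a4 -1.75, adjusted p = 0.0481, and S100a8 2.58, adjusted p = 0.0128). Without a known depth, values below 1 FPKM carry no counting interval.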
